A study of Drosophila melanogaster with 6 samples.

Results

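The sites described here are the 652 Yorkie (Yki) peaks on 3L, the left arm of the third chromosome of Drosophila melanogaster, out of 5136 peaks called over the whole assembly. They were chosen by chromosome name alone, so neither their width nor their score entered the choice. The peaks come from chromatin immunoprecipitation followed by sequencing (ChIP-seq) in embryos aged 8 to 16 h, with 3 Yki ChIP libraries and 3 libraries of input DNA, the unprecipitated chromatin that serves as background. All 6 libraries share a y; cn bw sp strain. Per the labels it carries y[1] with oc[R3.2], the alleles bw[1], cn[1], sp[1], Gr22d[1], Gr22b[1] and CG33964[R4.2], and also Rh6[1], GstD5[1], LysC[1], MstProx[1] and lab[R4.2]. Whole embryos were fixed in 1.8% formaldehyde for 15 min, and the antibody was a crude rabbit polyclonal serum named Yki91 against full-length Yki. Cells of every embryonic tissue are therefore pooled, and the 3 libraries of a group are not stated to be separate embryo collections.

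Yki is a transcriptional coactivator and the effector of the Hippo pathway, which limits organ growth. When the kinases Hippo and Warts are active, Yki is phosphorylated and held in the cytoplasm, and when they are not it enters the nucleus and switches on genes for growth and survival. It does not bind DNA itself and is brought to chromatin by partners such as Scalloped and Homothorax. Of 35 Hippo pathway genes and targets listed for this work, the RefSeq annotation places 5 on 3L. They are Diap1 (also called th), an inhibitor of apoptosis and a classical Yki target, mir-ban, the growth-promoting microRNA bantam and another classical target, and Tgi, which encodes a corepressor that competes with Yki for Scalloped. The other members are app, a palmitoyltransferase acting in Fat signalling, and Wbp2, a binding partner of Yki. The peak positions follow FlyBase release 5 and the annotation follows release 6, so no peak was assigned to a gene and sites are named by position.

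Each peak has a start, an end and 1 score given by the authors' peak caller. The sources used here do not give the scale of the score, which serves only to rank and compare peaks within this list. Depth per library is unknown and no library has values of its own, so the spread between replicates could not be measured and no test was run. Intervals are exact 95% intervals over peaks and cover counting error only. Neighbouring peaks are not independent, which makes these intervals too narrow.

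Yki sites on 3L were mostly short and of moderate score, with a minority that stood far above the rest. The 652 peaks covered 346507 bp, or 1.41% of the arm up to the last peak end at 24530463, at 26.6 peaks per Mb (24.6 to 28.7). Peak width ran from 201 to 5649 bp around a median of 415 bp (392 to 437 bp), with quartiles of 296 and 609.5 bp. Scores ran from 5.94 to 420.87 around a median of 27.5 (25.5 to 30.2), with quartiles of 16.3 and 67.8. A score above 100 was reached by 107 peaks, above 200 by 35 and above 300 by 8. The 65 peaks with the highest scores carried 38.8% of the summed score of the arm. As the scale is not given, this sum cannot be read as an amount of Yki binding. In the ranks of the whole list, 154 of the 652 peaks, or 23.6% (20.4 to 27.1%), belonged to the strongest 25%, which begins at a score of 72.94, and 13 were among the first 100.

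The highest score on the arm, 420.87, belonged to its widest peak, 5649 bp at 3L:14747927-14753575, which ranked 12 in the whole list. It stood alone, with 80510 bp free of peaks before it and 20571 bp after it. Close behind came a peak of 700 bp at 3L:14266970-14267669 with a score of 417.7, which had a smaller peak of score 67.97 only 201 bp before it. These 2 sites had nearly the same score at widths that differed 8.07-fold, and no other peak of 3L exceeded 337. The score of 337 belonged to 3L:11546101-11546855, and it was followed by 3L:21017848-21020258 with 335.49, 3L:13469975-13470761 with 309.69 and 3L:11003256-11004054 with 305.51. The last 2 sites above 300 were 3L:20942338-20943427 with 301.91, a single peak, and 3L:1586289-1586935 with 300.68.

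The remaining 12 of the 20 strongest peaks had scores from 237.48 to 294.75. They began at 22400516, 5177638, 9685495, 19163478, 10729910, 14961483, 10849459, 17556419, 17992494, 11244987, 21469616 and 131122, in order of score. The peak at 21872450 to 21873965 shared the score of 237.48 and fell outside the 20 only because ties were ordered by position. Between 10 and 15 Mb lay 9 of the 20, against 2 in the first 5 Mb, 2 between 5 and 10 Mb, 3 between 15 and 20 Mb and 4 beyond 20 Mb. In the same order, these stretches held 122, 144, 117, 156 and 113 of the 652 peaks, and the difference was not tested. Over the whole arm, 62.9% of peaks had another peak within 10 kb, and so did 16 of these 20. The other 4 were single, and the most isolated of them, at 3L:22400516-22401555 with a score of 294.75, had no peak for 271080 bp before it and 312451 bp after it.

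At the other end of the scale, the 5 weakest peaks of the arm scored 5.94, 6.56, 6.77, 7.12 and 7.7, and the first of them was the weakest of all 5136 peaks. They lay at 3L:13380605-13380821, 3L:2584191-2584468, 3L:15094612-15094917, 3L:5968260-5968485 and 3L:11055915-11056119, and none was wider than 306 bp. Of these 5, 4 had a neighbour within 10 kb, as did 62.9% of all peaks of the arm, and the difference was not tested. The weakest was single, and 89153 bp after it began the fifth strongest peak of the arm.

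Width and score went together on 3L, with a Spearman correlation across its 652 peaks of 0.70 and a Pearson correlation of 0.58, given as a description because both values come from the same reads and peaks are not replicates. The median width was 727 bp in the 25% of 3L peaks with the highest scores (163 peaks), and it was 420, 360 and 278 bp in the next groups of 163 peaks in order of falling score. No narrow peak was among the strong ones. Of 169 peaks under 300 bp, 0 belonged to the strongest 25% of the list, and the best of them, 297 bp at 3L:3616377-3616673, scored 48.85. Wide peaks were of both kinds. Of 54 peaks over 1000 bp, 39 belonged to the strongest 25% of the list and 11 scored below the median of the arm. Of these 11, 7 lay in the first 20 kb of the arm.

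**Figure D1:**
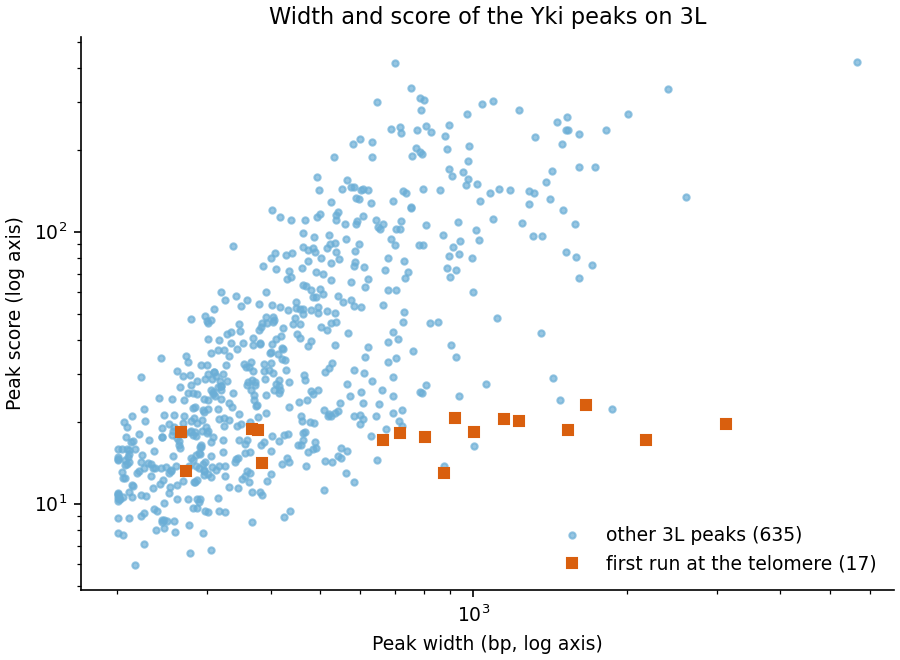
Score against width for every Yki peak on 3L, both on log axes, with 1 point per peak. Squares mark the 17 peaks of the first run at the telomere, all between 12.91 and 23.12 in score at widths of 267 to 3123 bp, while the other 635 peaks (circles) reach higher scores as they become wider.

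The 10 widest peaks show the same mixture. After the site of 5649 bp came 3123 bp at 3L:10584-13706 with a score of only 19.66, 2611 bp at 3L:19888349-19890959 with 134.33 and 2411 bp at 3L:21017848-21020258 with 335.49. The next were 2184 bp at 3L:5109-7292 with 17.1, 2012 bp at 3L:19163478-19165489 with 270.54 and 1873 bp at 3L:24460878-24462750 with 22.2. The list closed with peaks of 1821, 1729 and 1708 bp beginning at 10673861, 21001735 and 16403204, with scores of 235.51, 172.8 and 75.23. The 3 weak ones among these 10 were the 2 in the first 20 kb and 1 in the last 0.1 Mb of the arm, and the other 7 all lay between 10673861 and 21020258 and were in the strongest 25% of the list.

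The tip of the arm was the most densely occupied stretch on 3L. Low positions of 3L are the telomere, where fly chromosomes end in arrays of telomeric retrotransposons and repeats in place of the short repeats of most eukaryotes. From position 193 to 19780, 17 peaks followed each other with gaps of 62 to 383 bp (median 108.5 bp), so that 89.5% of 19588 bp was called as peak. Their scores were even, with a lowest value of 12.91, a median of 18.4 and a highest value of 23.12, while their widths ran from 267 to 3123 bp around a median of 875 bp. None was in the strongest 25% of the list. With 2.61% of the peaks of the arm, the run held 5.06% of its peak length. The next peak came 18648 bp after the run, where the median gap of the arm was 15934 bp. The first strong site of the arm followed at 3L:131122-132652 with 237.48.

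The ends of the other large arms were less covered by peaks, in a comparison that was not tested. Peaks covered 87.7% of the first 20 kb of 3L, while they covered 27.5% of the first 20 kb of 2L, where 4 peaks had scores of 17.12 to 26.68. In the first 20 kb of X, also a telomere, 1 peak covered 1.09%. At the far ends of 2R and 3R, whose telomeres are at high positions, 1 peak each covered 1.11% and 3.9% of the last 20 kb before the last peak end. The ends towards the centromeres, that of 3L included, had 1 or 2 peaks that covered 1.07 to 4.85% of 20 kb. Windows at high positions ended at the last peak end, so each held at least 1 peak by construction, unlike those at low positions. Runs of at least 5 peaks in which at least 50% of the bases lay in peaks were counted on all 5 large arms, and 3L had 2 of them, 2L 2, X 2, 2R 1 and 3R 1. Bands of weak peaks thus also occurred away from the ends of other arms. On 2L, 39 peaks covered 56.2% of 90076 bp at scores of 6.83 to 70.48 and 12 peaks covered 58.4% of 23095 bp at 7.14 to 54.46. Shorter bands of 5 peaks covered 91.5% of 4836 bp on 2R at scores of 8.89 to 21.79, 82.0% of 5857 bp on X at 17.85 to 25.31 and 73.7% of 3238 bp on 3R at 11.54 to 25.29. The other one on 3L, at 3L:9685495-9690201, began with the peak of score 281.3, and the other one on X reached 168.61. How many reads of the telomeric run map to more than 1 place is not known from the list, and the part this plays was not tested.

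Along the arm, peaks were unevenly spread. The 24 full bins of 1 Mb held a median of 24 peaks. The first had 59, of which 42 remained without the 17 of the telomeric run, and it held 12.0% of the peak length of the arm. The next highest were 41 at 11 to 12 Mb, 39 at 15 to 16 Mb and 38 at 21 to 22 Mb. The fewest were 12 at 23 to 24 Mb and 15 each at 2 to 3, 6 to 7 and 12 to 13 Mb. The bins with many peaks were therefore not gathered in 1 part of the arm.

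Strong sites made up the highest shares of peaks from 10 to 20 Mb. The share of peaks in the strongest 25% of the list was 17.4% (11.6 to 24.6%) of 144 peaks in the first 5 Mb, 21.4% (14.3 to 29.9%) of 117 at 5 to 10 Mb, 29.5% (21.6 to 38.4%) of 122 at 10 to 15 Mb, 30.8% (23.6 to 38.6%) of 156 at 15 to 20 Mb and 17.7% (11.2 to 26.0%) of 113 beyond 20 Mb. All 5 intervals overlap, and the differences were not tested. The first stretch includes the 17 peaks of the telomeric run, none of which was strong. The last includes the 26 peaks beyond the last strong site of the arm, which by definition hold no strong peak. Median scores of these stretches were 27.4, 24.01, 31.9, 31.3 and 24.05. The single bin with the highest median, 50.0 over 24 peaks, lay outside the middle, at 1 to 2 Mb, and the lowest median before 23 Mb, 15.9 over 33 peaks, was at 5 to 6 Mb.

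**Figure D2:**
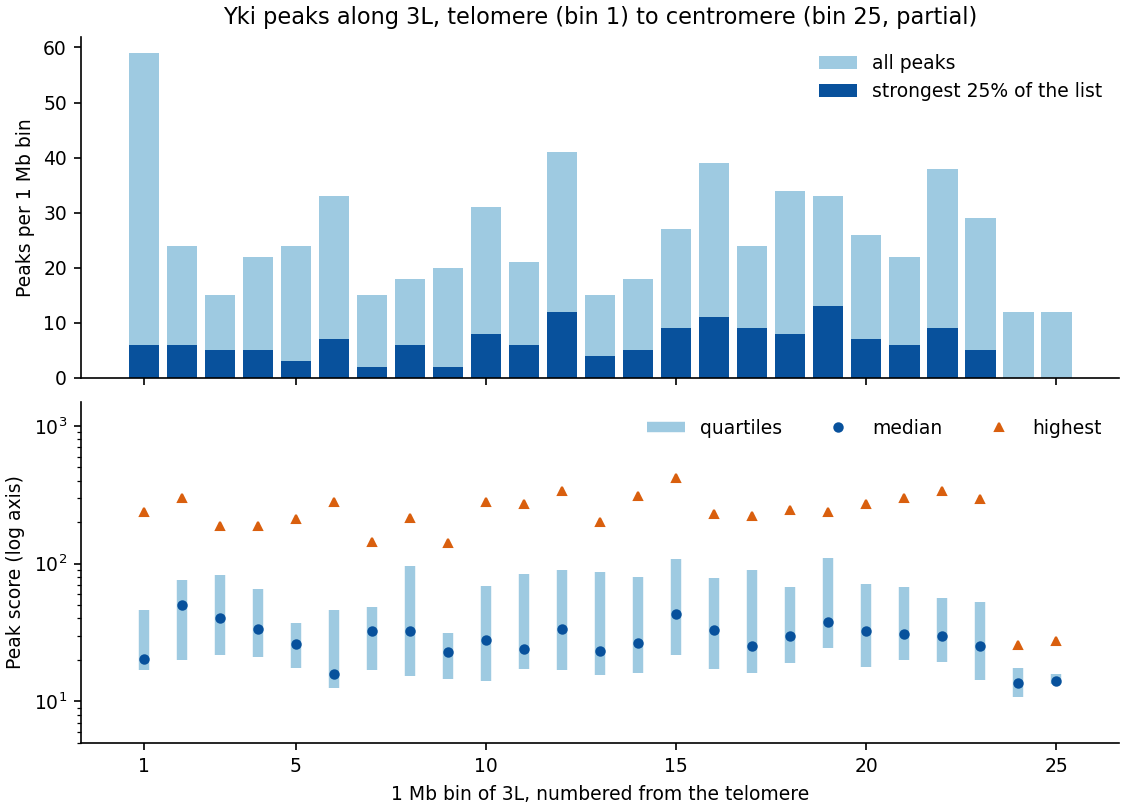
Upper panel, number of Yki peaks in each 1 Mb bin of 3L (light bars) and of those in the strongest 25% of the list (dark bars), with bins numbered from the telomere and the last bin partial. Lower panel, median (circles), quartiles (bars) and highest score (triangles) per bin on a log axis; the first bin has the most peaks, 59, and bins 24 and 25 hold 12 peaks each with no score above 27.51.

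Towards the centromere, where the arm passes into heterochromatin, the strong sites stopped. The last peak in the strongest 25% of the list began at 22938334 and scored 102.08, and in the 1591 kb from its end to the last peak end there were 26 further peaks, none above 37.01. The last 1 Mb held 13 peaks with a median score of 14.3 (12.5 to 17.8) and a highest score of 27.51, against a median of 28.2 (25.8 to 30.9) over the 639 peaks of the rest of the arm. Density there was 13.0 peaks per Mb (6.92 to 22.2), against 27.2 (25.1 to 29.3) over the rest. Neither pair of intervals overlaps, but they take peaks as independent. Runs of 3, 4 and 2 peaks are among these 13, so the intervals are too narrow, and the differences were not tested. The part of the last 1 Mb to which reads can be mapped is not known from the list, and its share in the lower density was not tested.

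Sites on 3L occurred singly and in small groups, with long empty stretches between some of them. The 651 gaps between neighbouring peaks had a median of 15934 bp with quartiles of 3235 and 52261 bp. Under 100 bp were 20 gaps, from 100 bp to under 1 kb 77, from 1 to 10 kb 173, over 10 to 100 kb 321 and over 100 kb 60. Another peak lay within 10 kb of 410 of the 652 peaks, or 62.9% (59.0 to 66.6%). Joined at gaps of at most 10 kb, these 410 formed 140 runs, and 242 peaks were single. Most runs were small, with 74 of 2 peaks, 36 of 3, 15 of 4 and 15 of 5 or more.

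Strong and weak peaks were single to a similar extent. Single peaks made up 38.7% (31.1 to 46.6%) of the 25% of 3L peaks with the highest scores and 35.6%, 38.0% and 36.2% (28.8 to 44.1%) of the next groups of 163 in order of falling score. Likewise, 23.4% (19.4 to 27.8%) of the peaks in runs and 23.97% (18.7 to 29.9%) of the single peaks belonged to the strongest 25% of the list. This share was 23.6%, 19.4% and 21.7% in runs of 2, 3 and 4 peaks. In runs of 5 or more it was 28.7% (19.9 to 39.0%) of 94 peaks. These 94 include the 17 of the telomeric run, of which 0 were strong, and the differences were not tested. The highest score in a run was a median of 2.25 times the second, with quartiles of 1.44 and 3.69, and was over 2 times the second in 74 of 140 runs. Any grouping of scores as unequal as these gives a ratio above 1, so it is no measure of the runs themselves. The strongest peaks of runs had a median score of 78.3 and a median width of 578 bp, and the other 270 peaks of runs had medians of 19.7 and 368 bp, as follows in part from taking the highest of each run. Scores of adjacent peaks within 10 kb had a Spearman correlation of 0.08 over 270 pairs, and it was 0.12 over the 381 adjacent pairs further apart; neighbouring pairs share peaks.

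The runs with the most peaks differed in composition. Of 15 runs of 5 or more peaks, 6 had more than 5 and 9 had 5, and of those 9 the first 2 by position are described. After the telomeric run, the next had 8 peaks over 25.7 kb at 3L:15072442-15098143. Their scores in order of position were 79.68, 15.89, 39, 29.73, 14.07, 59.11, 6.77 and 101.72, with the 2 strong ones at the edges. At 3L:10653497-10675681, 6 peaks scored 8.86, 140.62, 21.33, 55.34, 84.16 and 235.51. At 3L:11235801-11261647 the 6 scores were 33.28, 131.99, 138.62, 242.15, 18.54 and 14.25, so here the 3 strong peaks stood together within 6.68 kb and the weak ones lay outside them. At 3L:16016279-16046337 the 6 scores were 16.89, 32.42, 26.77, 97.6, 87.34 and 222.18, with all 3 strong peaks in the last 6.52 kb of a run of 30.1 kb.

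The run with the most strong peaks, 4 of 6, was at 3L:21000811-21020258, with scores of 25.5, 172.8, 122.79, 10.68, 109.86 and 335.49. Its peaks formed a pair of groups, and 8326 bp without a peak separated the first 4 peaks from the last 2. The shortest of the 15 runs of 5 or more peaks was at 3L:9685495-9690201, where 5 peaks within 4.71 kb scored 281.3, 18.36, 77.7, 42.24 and 61.14. By contrast, 5 peaks within 5.11 kb at 3L:5453532-5458644 scored 12.65, 13.98, 10.42, 12.06 and 15.15. A similar number of peaks over a similar length thus went with scores that did not overlap between these 2 runs.

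**Figure D3:**
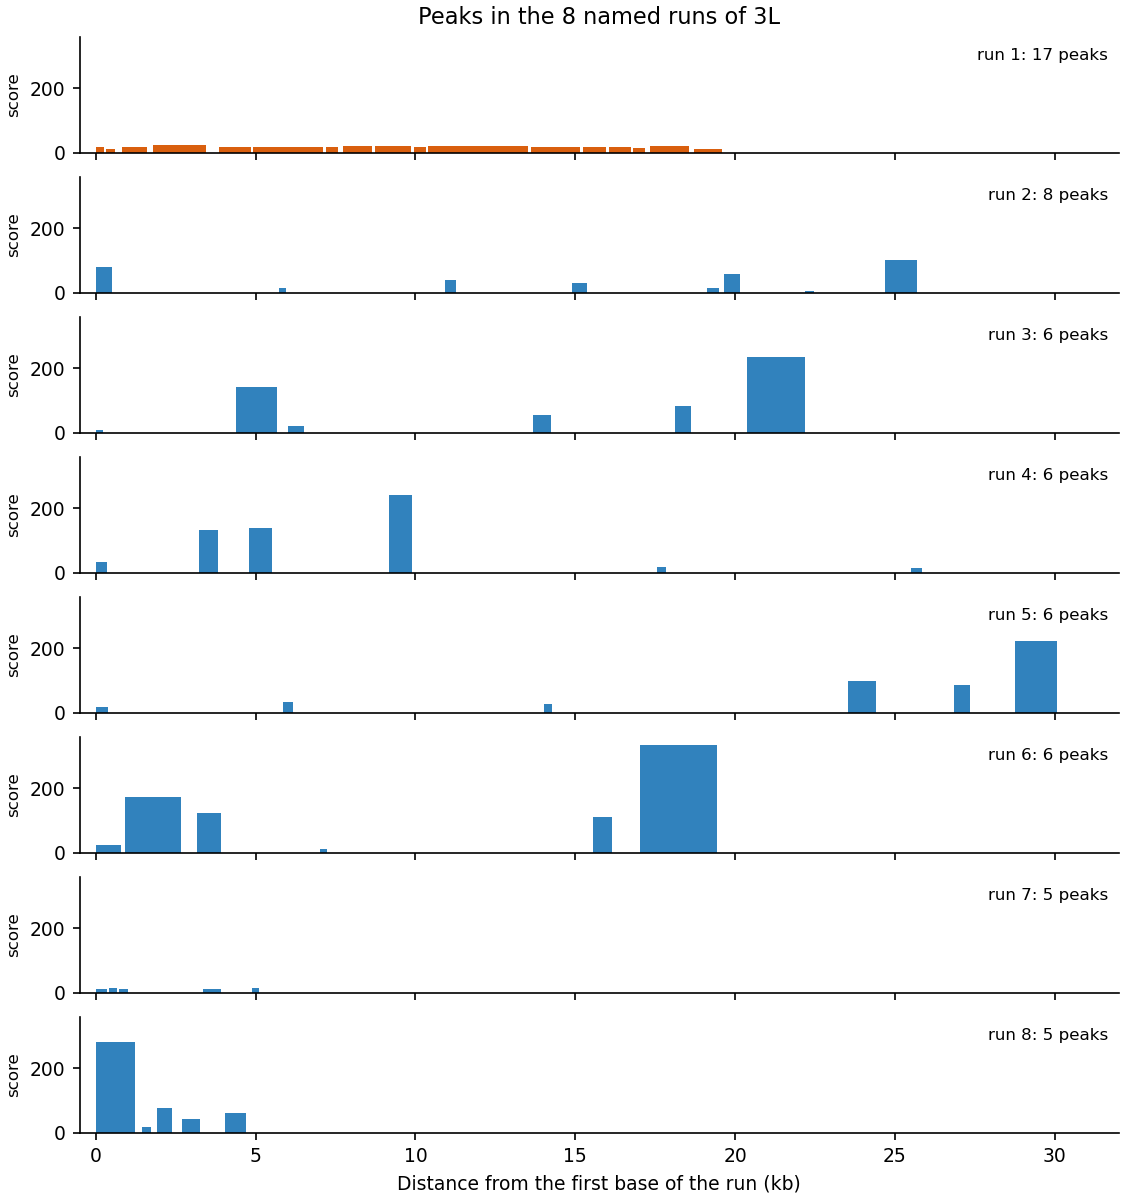
Peaks of 8 runs of 3L, the 6 with more than 5 peaks and the first 2 by position of the 9 with 5 peaks, 1 panel per run, drawn to scale as boxes from start to end (x axis, kb from the first base of the run) with the score as height. Run 1, at the telomere, is a nearly continuous band of 17 peaks below 24, while runs 3 to 6 and 8 each hold peaks above 200 beside weak ones.

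By windows of 100 kb, 44 of 246 windows, or 17.9% (13.3 to 23.3%), had no peak, 51 had 1 peak and 49 had 2. The variance of the number per window was 2.45 times its mean of 2.65. The densest window was the first, with 19 peaks, and after it came 21 to 21.1 Mb with 11 peaks and 11 to 11.1, 17.9 to 18 and 22.8 to 22.9 Mb with 10 each. Unlike the first window, which had no peak in the strongest 25% of the list, these had 5, 3, 3 and 1. The window at 22.8 to 22.9 Mb was also the last dense one before the centromere, and its highest score was 110.71.

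The longest stretch without a peak was 365331 bp, from 12117696 to 12483026. Next came 346090 bp from 7428708, 323623 bp from 23384097, 313244 bp from 23708011 and 312451 bp from 22401556. Over the whole arm, 23.6% of peaks were in the strongest 25% of the list. Some of these empty stretches began or ended at such strong sites, and their other edges were peaks with scores from 9.35 to 35.9. That from 7428708 followed a peak of score 213.25, that from 22401556 followed the peak of 294.75, and the longest ended at a peak of 106.7. Those from 23384097 and 23708011 lay next to each other near the centromere and were separated by a single peak of 16.13. Counting only the strongest 25% of the list, the longest stretch between a pair of strong peaks was 970 kb, from 9687894 to 10657880, shorter than the stretch without a strong peak at the centromere end, with 12 weaker peaks inside it, and the median distance between neighbouring strong peaks was 84.1 kb.

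Beside the other large arms, 3L was similar in density and in its share of peaks with a near neighbour. It had the lowest median score. Its density of 26.6 peaks per Mb stood against 25.3 on 2L, 28.99 on 2R, 26.5 on 3R and 24.4 on X, each with an interval that overlaps that of 3L. The share of peaks with a neighbour within 10 kb was 62.9% on 3L, against 63.3% on 2L, 60.8% on 2R, 61.9% on 3R and 68.5% (64.4 to 72.4%) on X. The nearest peak lay a median 5632.5 bp away on 3L, 4246 on 2L, 5816 on 2R, 5751 on 3R and 3837.5 on X. Median width was 415 bp on 3L, 457 on 2L, 448 on 2R, 442 on 3R and 406.5 on X. The median score was 27.5 (25.5 to 30.2) on 3L, against 30.1 on 2L, 32.3 on 2R, 33.4 (31.0 to 37.5) on 3R and 30.4 on X. Only the interval of 3R did not overlap that of 3L. Without the densest window the median of 3L was 28.4 (26.1 to 31.0), whose interval meets that of 3R, and without the last 1 Mb it was 28.2 (25.8 to 30.9). In the upper part of the ranks the arms were close, since 23.6% of 3L peaks belonged to the strongest 25% of the list, against 22.3% on 2L, 25.4% on 2R, 24.6% on 3R and 23.3% on X. The differences between arms were not tested.

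**Figure D4:**
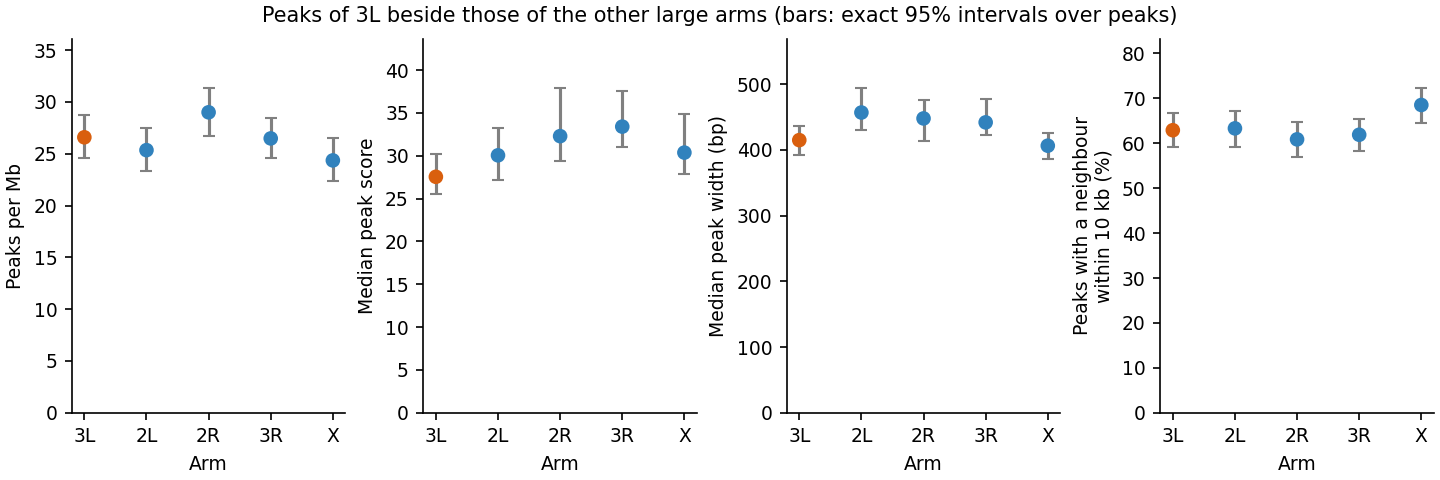
Peaks per Mb, median score, median width in bp and percent of peaks with a neighbour within 10 kb for 3L and then 2L, 2R, 3R and X; points are the values and bars exact 95% intervals over peaks. The median score of 3L, 27.5, is the lowest of the 5, and its interval with all peaks counted does not overlap that of 3R.

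Set against the genes the annotation places on each arm, 3L had 18.7 peaks per 100 genes (652 peaks, 3482 genes), against 16.6 on 2L, 16.8 on 2R, 17.4 on 3R and 20.2 on X. With protein-coding genes alone the value was 23.8 on 3L, against 21.9 on 2L, 21.5 on 2R, 21.7 on 3R and 24.9 on X. Gene numbers are those of release 6, whose arms may hold more sequence than those of release 5.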

How the data were processed

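The labels describe 3 Yki ChIP libraries and 3 input libraries. The deposited result is 1 list of peaks, from MACS on FlyBase release 5 per the file headers, with 1 score per peak of unstated scale. Per the submitters' processing notes, the tools were MACS2, BWA and CASAVA (1.7.0.3, 1.7.0.2) and the build BDGP5. The way in which libraries were combined is not stated. Start and end, the other deposited values, were used as 1-based positions. Computations used scipy 1.17.1, pandas 2.3.3 and numpy 2.4.6 under Python 3.11.15, and plots matplotlib 3.10.9. The furthest peak end stood for the length of an arm, peaks were placed in bins by their midpoint, and runs joined peaks at gaps of at most 10 kb. Shares have Clopper-Pearson, densities Poisson and medians binomial 95% intervals. These functions were tested on simulated data. Items named by rule are the 20 highest-scoring, 10 widest and 5 lowest-scoring peaks, the 5 densest 100 kb windows, 8 runs with the most peaks and the 5 longest gaps, with ties ordered by position (the last 2 runs were taken from 9 of equal size). The arm, the lists and the distances were chosen with earlier results of these data known. Distances to genes and motif searches were planned and not run, because the gene table follows release 6 and no release 5 genome was used here.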

Additional observations from a re-analysis of the deposited data

How the results depend on the processing

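Of 34 values recomputed under other settings, 16 stayed within the interval of the reported value and 18 moved. The interval used was 0.66 to 0.74 for the correlation of score and width and 17.3 to 20.2 for peaks per 100 genes. Both take peaks as independent and are too narrow. Leaving out the densest 100 kb window or the last 1 Mb, merging touching peaks, taking the strongest 25% over the 5 large arms alone and placing peaks in every window they overlap moved none. The merging could change nothing, since the smallest gap on 3L was 52 bp and no peaks touched. Restricting the list to its strongest 50% and 25% gave 12.3 and 6.28 peaks per Mb, median widths of 564 and 733.5 bp, shares with a neighbour within 10 kb of 42.7% and 24.7%, and shares of empty windows of 39.8% and 58.1%, and left 0 and 0 peaks in the last 1 Mb, as follows from fewer and stronger peaks; the correlation of score and width was 0.43 in the strongest 25%, over a narrower range of scores. Counting each run once beside the single peaks gave 382 units at 15.6 per Mb. With a run represented by its highest score, the median score of these units was 38.8. By construction, the share with a neighbour was 47.7% at 5 kb and 77.1% at 20 kb, empty windows made up 39.7% at 50 kb and 3.25% at 200 kb, and protein-coding genes alone gave 23.8 peaks per 100 genes. The last of these and the restriction of the last 1 Mb were chosen after seeing the data. The alternatives on distance to start sites and on motif windows were not run. No paired analysis was possible because replicates have no values of their own, so leaving out a replicate was not possible either. Weak sites of 3L that the depth hid cannot be counted.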

Other observations

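Scaffolds of heterochromatin assigned to the same arm but placed outside it, 3LHet, held 26 peaks over 2.21 Mb, or 11.8 peaks per Mb (7.69 to 17.2). Their median score was 16.1 (12.9 to 17.8) and their highest 45.84, and 0 of 26 belonged to the strongest 25% of the list, with an exact upper limit of 13.2%. These values resemble those of the last 1 Mb of 3L, with 13.0 peaks per Mb, a median score of 14.3 and a highest score of 27.51; the difference was not tested.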
